A study of Saccharomyces cerevisiae with 28 samples.

Results

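The clusters described here are PAR-CLIP sites of Slf1 and Sro9, La-related proteins (LARPs) of Saccharomyces cerevisiae, whose mode, the position of highest signal that the peak caller gave, lay in the last 20% of a spliced coding sequence on the same strand. Of 34687 clusters kept in the 8 PAR-CLIP libraries, 7886 were of this kind, called terminal clusters, and 17037 had their mode in the first 80% of a coding sequence, called upstream clusters. The minimum for a kept cluster was 5 reads and 2 conversion events, and its length was 11 to 100 nt. The 7886 clusters lay in 2260 of the 6027 protein-coding genes of the R64 annotation (37.5%), called their hosts. The strains, Slf1-TAP (GP6797) and Sro9-TAP (GP6482), derive from BY4741, and each carries a C-terminal affinity tag at the protein's own locus and under its own promoter. Each was assayed after 0.4 mM H2O2 for 15 min and untreated, with 2 libraries per LARP and condition. All 8 libraries came from cells grown with 4-thiouracil. Total RNA came from untagged WT, sro9Δ and slf1Δ cells of the same background, also after H2O2 and untreated, with 2 libraries each. In it, SRO9 had 0 or 1 counts in the 4 sro9Δ libraries against 91 to 3187 in WT, and SLF1 had 0 in the 4 slf1Δ libraries against 14 to 263 in WT. The PAR-CLIP duplicates were separate cultures, and the total RNA cultures, also duplicate, were split before treatment.

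LARPs share a La motif, an RNA-binding fold, and Slf1 and Sro9 associate with translating ribosomes and with resistance to oxidative stress and copper. In PAR-CLIP, 4-thiouracil in the RNA is crosslinked to the bound protein by ultraviolet light, so that crosslinked positions appear as T-to-C conversions. RNase T1, which cuts after G, trims the RNA to the part that the protein covers. The end of a coding sequence is where an elongating ribosome meets the stop codon and termination factors release the protein, so a cluster may end before the stop codon or run across it into the 3′ untranslated region.

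The clusters that ran across a stop codon are shown first, because the comparisons below single them out. Of the 14 hosts with such a cluster in at least 5 libraries, 10 are given, namely the 5 with one in at least 6 libraries and, of the 9 with one in exactly 5, the 5 with the largest mean share of terminal reads. Each is given by 1 of its clusters or by at most 30 bases of it around the stop codon, 5′ to 3′ on the coding strand of the sacCer3 (R64) genome, as DNA, with the stop codon in capitals.
ADH2: gtagatacgttgttgacacttctaaaTAAg
CLG1: attcggcagtgtatTAGtgaaaac
ADH1: atacgttgttgacacttctaaaTAAg
RPL30: tgatatcttgaccaccttggctTAAataag
LSB6: tcacctggtgtTGAt
RPL32: aagggtcgtttggctttggaagctTAAatt
RPL20A: accttccactttctacTGAactg
RPL40A: ttaaaaTGAtctgtttcgccc
RPL24A: aaaaggttgctgctacttctcgtTAAg
ILV6: tcccaactaccacctggtTAGgttagtctc
These lie at chrXIII:873290-873319 (ADH2, minus strand), chrVII:89323-89346 (CLG1, plus), chrXV:159547-159572 (ADH1, minus), chrVII:439614-439643 (RPL30, plus), chrX:239073-239087 (LSB6, plus), chrII:46344-46373 (RPL32, plus), chrXIII:753221-753243 (RPL20A, minus), chrIX:69520-69540 (RPL40A, plus), chrVII:437466-437492 (RPL24A, minus) and chrIII:104610-104639 (ILV6, minus). ADH1 and ADH2, which encode alcohol dehydrogenases, are identical over the stretches shown, so their reads cannot be told apart there. CLG1 encodes a cyclin-like protein, LSB6 a phosphatidylinositol kinase, ILV6 the regulatory subunit of acetolactate synthase in branched-chain amino acid synthesis, and the others proteins of the large ribosomal subunit.

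A second set shows 30 bases or fewer of clusters inside the coding sequence that the comparisons below turn on. Capitals mark the motif UGGU or its variants UGCU, CGGU and CGCU (T for U here), counted on the strand of the gene with overlapping matches included.
OLA1: tgccatcaaggcCGCTGGTaagttgatgca
NCE102: atgatctccaaTGGTgccttTGGTtcTGGT
TEF2: attaggtagattCGCTgtcagagacatgag
GRX2: acatTGGTGGTaacagcgatttggaaactt
TRX2: aagggCGGTaaggaggttaccagagtcgtc
SRV2: cttCGCTgaTGGTaagttcaaatctg
HIS5: aattaggctgttccggatgtttgagaatta
These lie at chrII:290751-290780 (OLA1, minus strand), chrXVI:830350-830379 (NCE102, plus), chrII:478924-478953 (TEF2, plus), chrIV:1471369-1471398 (GRX2, plus), chrVII:912961-912990 (TRX2, minus), chrXIV:368273-368298 (SRV2, plus) and chrIX:143979-144008 (HIS5, plus). The TEF2 cluster has a second copy in the genome, and the HIS5 stretch holds none of the motifs. The third set shows short clusters with about 1 conversion per read, with the mode in capitals.
MET18: aatcggtTggtcctt
SMC1: Ccttcttcgtgctgg
NUP60: Tttcaatgttcccgtgg
QDR1: ttccgtctAaggct
They lie at chrIX:116510-116524 (MET18), chrVI:122883-122897 (SMC1), chrI:153786-153802 (NUP60) and chrIX:135840-135853 (QDR1), all on the plus strand, and NUP60 and QDR1 were chosen after their values were seen.

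The depth differed between the LARPs. Slf1 libraries held 255 and 101 terminal clusters after H2O2 and 167 and 339 untreated, with 4497 to 7803 reads in them. Sro9 libraries held 2136 and 1744 after H2O2 and 1615 and 1529 untreated, with 39377 to 63110 reads. A gene without a cluster can have had fewer than 5 reads, so absence from a library is a limit of depth and not a measurement of 0. Most hosts were seen rarely: 888 of the 2260 had a terminal cluster in exactly 1 library and 14 in all 8. A further 223 clusters with their mode in the last 20% were over 100 nt and so not included, with 3 to 10 in each Slf1 library and 36 to 69 in each Sro9 library. In Sro9 their reads came to 44.6% to 83.5% of those in the included clusters, so a host with 0 reads in a library can have had a longer cluster there. At the boundary, 701 terminal clusters had the mode between 80% and 82% of the coding sequence, and 612 clusters just outside had it between 78% and 80%.

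Clusters of both LARPs became more frequent toward the stop codon. In Slf1 libraries 28.5% and 28.5% of coding clusters after H2O2, and 29.2% and 28.1% untreated, had the mode in the last 20%. In Sro9 libraries the shares were 31.8% and 31.3% after H2O2 and 32.5% and 33.1% untreated. The first 20% held 12.5% to 15.2% in the 8 libraries. At the finest step, the last 5% of the coding sequence held 7.16% to 7.54% of Slf1 clusters and 8.42% to 10.6% of Sro9 clusters, against 2.91% to 3.11% and 2.57% to 2.94% in the first 5%. The Sro9 profile rose to its highest value in the last step in all 4 libraries, while the Slf1 profile had its highest value in the last step in none of the 4. The Wilson intervals of the terminal share (95%, counting error only) ran from 24.1% to 33.4% in the smallest Slf1 library and from 30.7% to 32.9% in the largest Sro9 library.

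**Figure D1:**
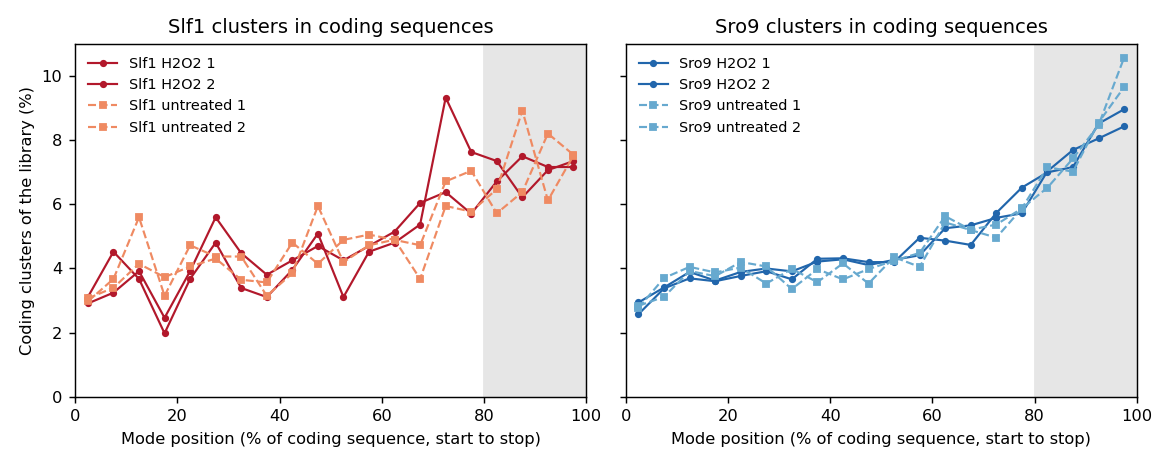
Share of a library's coding clusters (%, y axis) by the position of the mode in steps of 5% of the coding sequence (x axis, start to stop), for Slf1 (left) and Sro9 (right), 1 line per library, with the last 20% shaded. In the last step Sro9 libraries stand at 8.42% to 10.6% and Slf1 libraries at 7.16% to 7.54%.

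Terminal clusters of Slf1 and Sro9 were compared in 11 measures, and the libraries of the LARPs did not overlap in 4 of them. Slf1 clusters made up 28.6% ± 0.46 of coding clusters, against 32.1% ± 0.80 for Sro9 (SD, n = 4 each). The Slf1 modes lay at a median of 78 ± 2.2 nt from the end of the stop codon, against 99.8 ± 6.8 nt for Sro9. The last 20% is a longer stretch in a longer host, and the median coding length per cluster was 966 to 1065 nt in Slf1 and 1272 to 1351.5 nt in Sro9. As a share of the coding length, the median distance was 8.67% to 10.1% in Slf1 libraries and 8.43% to 9.18% in Sro9 libraries, and these ranges overlapped. A motif of the 4 was present in 60.5% ± 2.2 of Slf1 clusters and 46.2% ± 1.3 of Sro9 clusters. The sequence of the cluster was copied elsewhere in the genome for 11.5% ± 4.1 of Slf1 and 4.21% ± 0.63 of Sro9 clusters. In each of these 4 measures the Slf1 libraries did not overlap with the Sro9 libraries, and the exact two-sided permutation test over libraries gave p = 0.0286, the smallest that 4 against 4 allows, or 0.0786 adjusted over the 11 measures tested. Within the untreated libraries and within the H2O2 libraries alone each of the 4 differences kept its direction, where 2 libraries against 2 cannot go below an exact permutation p of 0.333. The share of clusters that ran across the stop codon was 8.93% ± 2.2 for Slf1 and 8.13% ± 1.2 for Sro9 (exact permutation p = 0.543). The median length was 32.5 ± 3.3 nt for Slf1 and 28.0 ± 2.2 nt for Sro9 (exact permutation p = 0.0857).

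**Figure D2:**
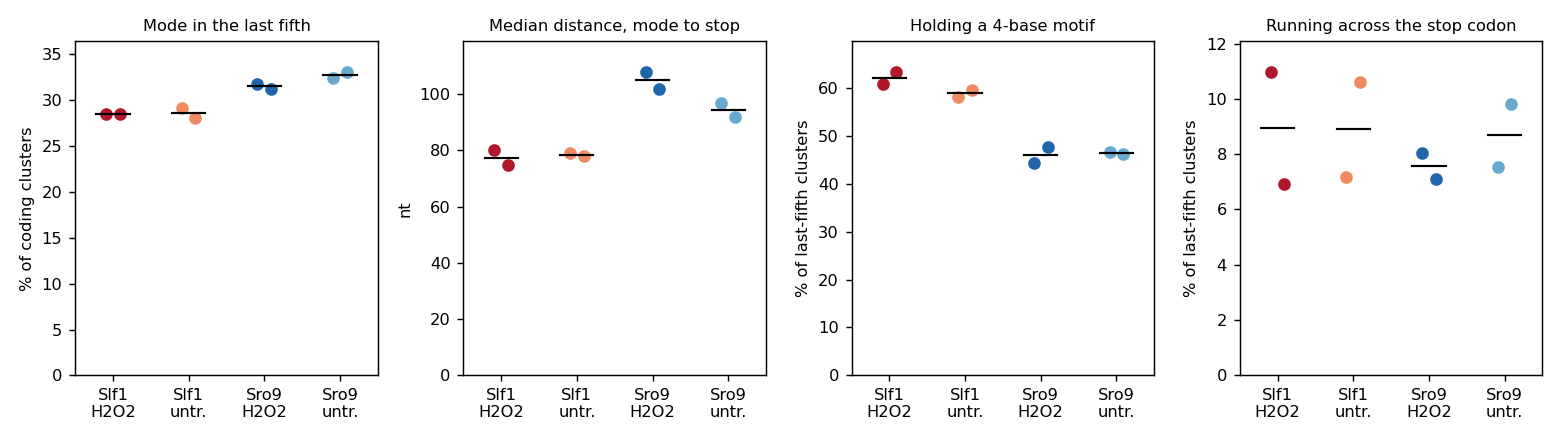
Measures of terminal clusters in each PAR-CLIP library (points) with the mean of each pair (bar): share of coding clusters (%), median distance from mode to stop codon (nt), share holding a 4-base motif (%) and share running across the stop codon (%). Slf1 and Sro9 libraries do not overlap in the first 3 panels and overlap in the last.

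Counted by clusters, the hosts also differed between the LARPs in kind and in length. Ribosomal protein genes, which are short and highly expressed, gave 23.1% to 25.1% of Slf1 terminal clusters and 5.34% to 8.72% of Sro9 ones. By reads they held 23.1% to 32.2% of the terminal reads in Slf1 and 16.2% to 26.8% in Sro9, and these ranges overlapped. The LARPs differ in depth, and its part in the cluster shares was not tested. Of the Slf1 clusters in ribosomal protein coding sequences, 31.2% and 30.9% after H2O2 and 30.4% and 27.5% untreated lay in the last 20%, against 27.8%, 27.8%, 28.8% and 28.3% in other genes. For Sro9 the same shares were 19% and 23.3% after H2O2 and 21.2% and 19.7% untreated, against 33.0%, 32.3%, 34.1% and 34.9% in other genes. Among the included clusters, ribosomal protein hosts were thus below other hosts in 4 of 4 Sro9 libraries and 1 of 4 Slf1 libraries. Clusters above the length limit are not in these shares. Those with the mode in the last 20% numbered 3 to 10 in each Slf1 library and 36 to 69 in each Sro9 library. Their part in the ribosomal protein shares was not tested. Without ribosomal protein genes the difference in the terminal share, Slf1 minus Sro9, was -5.40 percentage points, against -3.56 with them, and that in the distance to the stop codon was -14.8 nt, against -21.8 nt.

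Coding length went with the Sro9 share. In coding sequences of at least 1200 nt, 34.5% to 36.6% of Sro9 clusters lay in the last 20%, against 25.2% to 27.3% in those under 600 nt, and without ribosomal protein genes the short class still stood at 27.7% to 30.9%. For Slf1 the long class held 27.2% to 28.8% and the short class 26.5% to 28.8%, and these ranges overlapped. Over the last 150 nt of hosts of at least 750 nt, the 5 steps of 30 nt each held 17.5% to 23.5% of Sro9 clusters, and the step from 30 to 59 nt before the end of the stop codon was the highest in 4 of 4 libraries (21.1% to 23.5%). In Slf1 that step was the highest in the H2O2 libraries (25.7% and 34.3%). The untreated Slf1 libraries had their highest step at 120 to 149 nt (23.2%) and at 90 to 119 nt (23.8%).

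**Figure D3:**
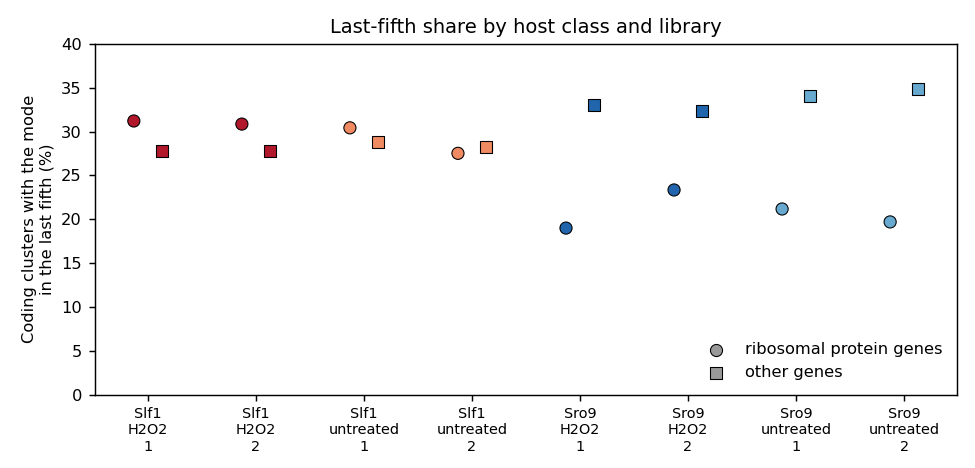
Share of coding clusters with the mode in the last 20% (%, y axis) in each library (x axis), for ribosomal protein genes (circles) and other genes (squares). Sro9 circles lie at 19% to 23.3%, below the squares at 32.3% to 34.9%, and Slf1 circles and squares lie between 27.5% and 31.2%.

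Terminal and upstream clusters did not differ beyond the test in any of the 8 measures compared. Their median length was 30.2 nt against 30.6 nt, and a motif was present in 53.3% against 52.9% (means over 8 libraries). Sequences copied elsewhere were less frequent in the last 20%, 7.88% against 11.9%, lower in 7 of 8 libraries (exact paired p = 0.0156, adjusted 0.125). Modes on a uridine made up 26.7% in the last 20% and 29.4% in the rest, lower in 7 of 8 (exact paired p = 0.0938, adjusted 0.188). Among features that were described and not tested, clusters ending on a G, where RNase T1 cuts, made up 23.6% to 33.5% of Slf1 and 37.0% to 44.6% of Sro9 terminal clusters, and were more frequent than in the rest of the coding sequence in 8 of 8 libraries. The base before the cluster was a G in 24.8% to 39.6% of Slf1 and 42.9% to 50.2% of Sro9 clusters, again more than in the rest in 8 of 8.

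The 4-base motifs kept to the reading frame. The second base of a motif (G) was the first base of a codon for 81.4% to 88.7% of the motifs in Slf1 terminal clusters and 76.8% to 81.8% in Sro9 clusters. In upstream clusters the shares were 85.3% to 87.3% in Slf1 and 78.9% to 81.9% in Sro9, and these ranges overlapped with the terminal ones. In the last 20% of the sequence itself, motifs had this frame in 78.3% of cases in Slf1 hosts, 70.3% in Sro9 hosts and 63.1% in all coding genes. Windows of 30 nt held a motif in 39.2% of cases in Slf1 hosts, 32.6% in Sro9 hosts and 29.2% in all coding genes. Clusters of 25 to 35 nt held one in 46.3% to 65.6% of cases for Slf1 and 39.9% to 46.1% for Sro9. The share of motifs in this frame was thus above that of the hosts' own sequence in 8 of 8 libraries, which is a description with no test.

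Slf1 clusters mostly lay on Sro9 clusters. A Sro9 cluster of the same condition overlapped 74.5% and 68.3% of Slf1 terminal clusters after H2O2 and 72.5% and 71.7% untreated. The other Slf1 replicate overlapped 21.96% and 61.4% after H2O2 and 55.1% and 28.3% untreated. In the other direction, an Slf1 cluster overlapped 7.77% to 15.9% of Sro9 terminal clusters, and the Sro9 replicate 48.1% to 59.6%. Of the upstream Slf1 clusters, a Sro9 cluster of the same condition overlapped 68.7% and 69.2% after H2O2 and 67.4% and 65.1% untreated. Over all libraries 438 hosts had an Slf1 cluster and 2207 a Sro9 cluster, and the 385 that had both were 87.9% of the Slf1 hosts and 17.4% of the Sro9 hosts. The libraries of the LARPs differ in depth, and its part in these shares was not tested.

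Hosts found in both replicates were abundant mRNAs. In WT total RNA, on the scale of FPKM (counts scaled by coding length and by library total, without the rRNA locus), the Slf1 hosts found in both replicates had a median of 1671 after H2O2 (59 hosts) and 2108 untreated (89 hosts), and the Sro9 hosts 193 after H2O2 (838 hosts) and 194 untreated (690 hosts). The median of all coding genes was 30.7 after H2O2 and 27.5 untreated. Hosts seen in 1 library had a median of 36.7 untreated, and those seen in 7 or 8 libraries 1315.

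Terminal clusters that ran across the stop codon numbered 651, in 386 hosts, with the mode before the stop codon in 583 and within it in 68. They made up 28 and 7 clusters in Slf1 libraries after H2O2 and 12 and 36 untreated, and 172 and 124 in Sro9 libraries after H2O2 and 122 and 150 untreated. They reached a median of 8 nt past the stop codon (quartiles 4 and 16), and 73.6% of them ended within 15 nt. They held 18.2% to 20.2% of terminal reads in Sro9 and 3.34% to 16.6% in Slf1. With clusters over 100 nt included, they held 31.8% to 43.2% in Sro9 and 2.87% to 18.8% in Slf1. Of the 386 hosts, 240 had such a cluster in 1 library and 29 in at least 4, 57 had one in Slf1, 367 in Sro9 and 38 in both, and 74 were ribosomal protein genes. The stop codon was TAA in 61.7% of these hosts, against 51.8% of all terminal hosts and 47.6% of all coding genes. TAG and TGA hold a G, where RNase T1 cuts, and TAA does not, and the part of this in the shares was not tested.

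ADH2 and CLG1 had a stop-crossing cluster in all 8 libraries. The ADH2 stretch shown above is identical in ADH1, so the reads given here for ADH2 can be those of ADH1. In WT total RNA ADH1 had 11837.5 FPKM untreated, against 691.5 for ADH2. The stop-crossing cluster of ADH2 had 14 and 25 reads in Slf1 libraries after H2O2 and 101 and 71 untreated. In Sro9 libraries it had 608 and 334 after H2O2 and 424 and 336 untreated. The ADH2 values were lower after H2O2 in Slf1 without overlap and overlapped between the conditions in Sro9. CLG1 had 24 and 20 reads in Slf1 after H2O2 and 19 and 78 untreated, and 223 and 140 in Sro9 after H2O2 and 253 and 224 untreated. Upstream of the last 20%, CLG1 had 6 reads in 1 library and 0 in the other 7. RPL32, a large-subunit ribosomal protein, had the deepest one of the 10: 835 and 730 reads in Sro9 after H2O2 and 1172 and 726 untreated. In Slf1 it was seen in 1 untreated library with 145 reads, since in the other 3 the cluster at the same place ended 2 to 9 nt before the end of the stop codon. LSB6 had the same 15 nt in 5 of the 6 libraries in which it was seen, with 5 to 15 reads, and SOD1, which encodes the copper-zinc superoxide dismutase, had one in 5 libraries with 9 reads in Slf1 after H2O2 and, in Sro9, 53 and 52 after H2O2 and 18 and 15 untreated. Of the ribosomal protein hosts, RPL30 had 20 and 5 reads in Slf1 after H2O2 and 23 and 39 untreated, and 0 and 172 in Sro9 after H2O2 and 222 and 0 untreated. RPL20A and RPL40A were each seen in 5 libraries, with up to 523 and 332 reads, and RPL24A in 5, with 14 reads in 1 Slf1 library and 37 to 44 in the 4 Sro9 libraries. ILV6 had 31 and 31 reads in untreated Slf1 libraries and 0 and 0 after H2O2, and 456 and 0 in Sro9 after H2O2 and 253 and 209 untreated. Where these hosts had 0 reads, the same place could hold a cluster that ended before the stop codon, had its mode after it or exceeded 100 nt.

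**Figure D4:**
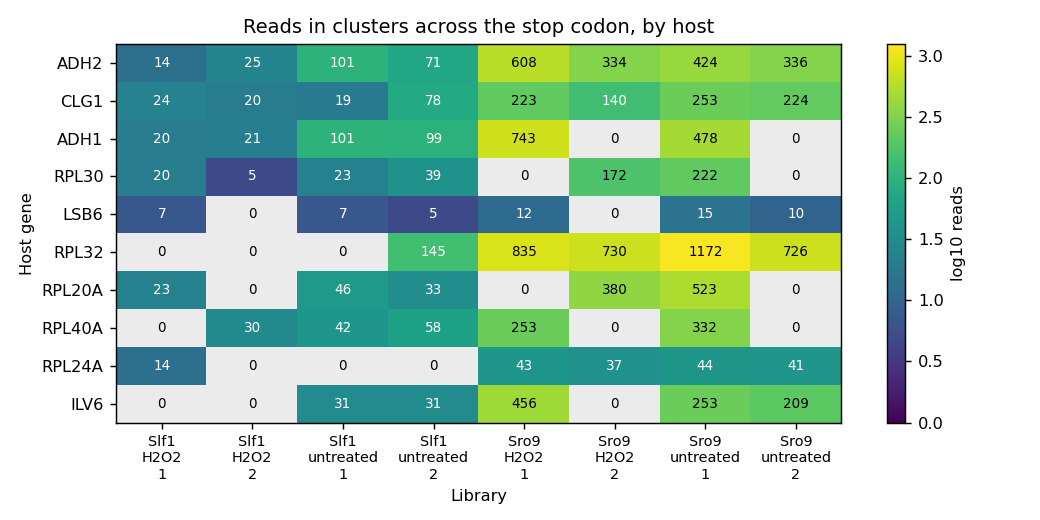
Reads in clusters that ran across the stop codon (numbers and colour, log10 scale) for 10 of the 14 hosts with such a cluster in at least 5 libraries (y axis, ties at 5 libraries by mean share of terminal reads) in each library (x axis), with 0 in grey where no such cluster was kept. ADH2 and CLG1 have reads in all 8 libraries, and RPL32 reaches 1172. Over the stretches shown above, ADH2 and ADH1 reads cannot be told apart.

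Slf1 terminal reads came from fewer hosts, 87 to 284 in a library against 1091 to 1429 in Sro9. The 10 leading hosts are thus a larger part of all hosts in Slf1, and the part of depth in their shares was not tested. The 10 leading hosts held 35.5% and 55.2% of Slf1 terminal reads after H2O2 and 45.4% and 24.1% untreated, against 11.2% and 13.5% after H2O2 and 11.8% and 10.97% untreated in Sro9 libraries. With clusters over 100 nt included, the 10 leading hosts held 33.4% to 57.7% in Slf1 libraries and 22.5% to 26.9% in Sro9 libraries, without overlap. OLA1, which encodes an Obg-like ATPase, had 779 and 825 reads in Slf1 after H2O2 and 0 and 0 untreated, and 81 and 10 in Sro9 after H2O2 and 248 and 61 untreated. It was thus high in both Slf1 H2O2 libraries, at 10.5% and 18.3% of their terminal reads. Its main clusters there (749 and 786 reads) had 0.036 and 0.011 conversions per read, against a median of 0.83 and 0.67 over the terminal clusters of these libraries, so few of the OLA1 reads carry the mark of a crosslink. TEF1 and TEF2, nearly identical genes for elongation factor eEF1A, had 207 and 204 reads (TEF1) and 204 and 184 reads (TEF2) in Slf1 after H2O2. Untreated, Slf1 had 442 and 0 for TEF1 and 508 and 0 for TEF2, where the second library had clusters over 100 nt with 661 and 695 reads in their place. In Sro9, clusters over 100 nt with 4247 to 7970 reads stood at the end of TEF1.

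NCE102, which encodes a plasma membrane protein of eisosomes, had 36 and 27 reads in Slf1 after H2O2 and 200 and 268 untreated, and 434 and 391 in Sro9 after H2O2 and 232 and 265 untreated. The conditions did not overlap in either LARP, with H2O2 below untreated in Slf1 and above it in Sro9, and its deepest cluster in each of the 8 libraries ended at the same base, 51 nt before the end of the stop codon. The log2 difference of NCE102 was -2.75 in Slf1 (adjusted p = 0.46 in edgeR's quasi-likelihood test) and 0.61 in Sro9 (adjusted p = 1.00). Its WT mRNA was higher after H2O2, with a log2 fold change of 1.70 ± 0.41 (SE, edgeR adjusted p = 0.0045). RPL23B, a large-subunit ribosomal protein, had 141 and 135 reads in Slf1 after H2O2 and 222 and 0 untreated, and 610 and 371 in Sro9 after H2O2 and 348 and 191 untreated. RPS20 and RPS2, small-subunit ribosomal proteins, had up to 928 and 617 reads in a Sro9 library, against 66 and 29 at most in the shallower Slf1 libraries. As shares of a library's terminal reads, RPS20 reached 1.51% in Sro9 and 0.869% in Slf1, and RPS2 1.16% and 0.390%. TDH3, which encodes the glycolytic enzyme glyceraldehyde-3-phosphate dehydrogenase, had 0 and 144 reads in Slf1 after H2O2 and 113 and 234 untreated, and 0 in the 4 Sro9 libraries, where 2 had clusters over 100 nt with 1673 and 1761 reads. HIS5, a histidine synthesis enzyme, had 584 and 371 reads in Sro9 after H2O2 and 471 and 271 untreated, at a site with no motif, and 0 to 35 in Slf1. As shares of terminal reads, HIS5 stood at 0.688% to 0.925% in Sro9 and 0% to 0.778% in Slf1, and these ranges overlapped.

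Some leading hosts rested on short clusters. MET18, which encodes an iron-sulphur cluster assembly protein, had 273 reads in 1 Slf1 H2O2 library and 323 in 1 Slf1 untreated library, all in the same 15 nt, and 0 in the other 2 Slf1 libraries. SMC1, a cohesin subunit, had 110 to 241 reads in 6 of 8 libraries, in 14 to 17 nt with the same first base. NUP60, a nuclear pore protein, had 589 reads in 1 Slf1 H2O2 library, in 17 nt. The end of this stretch, gttcccgtgg, is also the end of the TruSeq STP sequence that the authors trimmed from the reads. Nearly every read in these clusters carried 1 conversion (0.98 to 1.01 per read), and their mRNAs had 13.5 (MET18), 11.04 (SMC1) and 36.9 (NUP60) FPKM after H2O2. Clusters of up to 20 nt numbered 1738 of the 7886, and the 619 among them with 1 conversion per read (within 0.05) held 5.24% to 13.5% of Slf1 and 3.37% to 3.86% of Sro9 terminal reads. Whether such clusters are binding sites was not tested.

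No measure of terminal clusters passed a test of H2O2 against untreated libraries. The terminal share was 28.5% ± 0.005 after H2O2 and 28.6% ± 0.78 untreated in Slf1, and 31.5% ± 0.37 after H2O2 and 32.8% ± 0.45 untreated in Sro9 (SD, n = 2 each). The Sro9 modes lay a median of 105.0 ± 4.2 nt before the end of the stop codon after H2O2 and 94.5 ± 3.5 nt untreated, without overlap (8.78% and 9.18% of the coding length after H2O2, and 8.78% and 8.43% untreated), and the Slf1 modes 77.5 ± 3.5 and 78.5 ± 0.71 nt. Over both LARPs, with labels permuted within each, the smallest exact two-sided p among the 11 measures was 0.111 and the smallest adjusted p 0.407, and the design cannot go below 0.0556. The share of stop-crossing clusters was 8.96% ± 2.9 after H2O2 and 8.90% ± 2.4 untreated in Slf1, and 7.58% ± 0.67 after H2O2 and 8.68% ± 1.6 untreated in Sro9.

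No host passed the test of H2O2 against untreated reads in either LARP. The test, edgeR's quasi-likelihood test on reads per gene and stretch, ran over 2347 stretches of mRNAs, of which 634 were terminal stretches, with at least 20 reads in at least 2 libraries. It called 0 of the 634 in Slf1, where 0% of all stretches were called in each direction and 17 terminal stretches had an unadjusted p under 0.05. It called 0 in Sro9 (0% of all stretches, 28 terminal stretches with an unadjusted p under 0.05) and 0 in the difference of the responses (0% of all, 18). DESeq2 gave an adjusted p for fewer stretches. In Slf1 it called 4 of 284 terminal stretches higher and 11 lower, where 2.04% and 6.43% of all stretches were called, and OLA1 and GRX2 were among those higher. In Sro9 it called 6 of 227 higher and 3 lower (2.62% and 1.75% of all), and in the difference 6 of 317 higher and 13 lower (1.37% and 4.3% of all).

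Antioxidant enzymes remove peroxides and keep thiols reduced, and the reads of several such hosts are given here as values. SRX1 (sulfiredoxin, which repairs overoxidised peroxiredoxins) had 31 and 26 reads in Slf1 after H2O2 and 0 and 0 untreated, and 365 and 344 in Sro9 after H2O2 and 0 and 0 untreated. TSA2, a peroxiredoxin, had 343 and 254 in Sro9 after H2O2 and 0 and 0 untreated, and none in Slf1. GRX2, a glutaredoxin, had 70 and 58 in Slf1 after H2O2 and 0 and 0 untreated, and 99 and 59 in Sro9 after H2O2 and 53 and 15 untreated (Slf1 adjusted p = 0.46, edgeR). SRX1 and TSA2 reached the minimum of the read test through H2O2 libraries alone, so their values are a description. TRX2, a thioredoxin, had 91 and 0 terminal reads in Slf1 after H2O2 and 0 and 0 untreated. In Sro9 it had 828 and 0 after H2O2 and 27 and 42 untreated, so the conditions overlapped in both LARPs. Its mode lay at 80.3% of the coding sequence, just inside the boundary. In upstream clusters TRX2 had 60 and 84 reads in Slf1 after H2O2 and 0 and 31 untreated. The upstream reads in Sro9 were 562 and 419 after H2O2 and 45 and 9 untreated. These upstream reads were thus higher after H2O2 in both LARPs, without overlap. The part of the boundary in the terminal values of TRX2 was not tested. SOD1 had 9 and 42 in Slf1 after H2O2 and 5 and 8 untreated, and 53 and 52 in Sro9 after H2O2 and 344 and 125 untreated, so in Sro9 it was lower after H2O2. The other antioxidant hosts seen in at least 4 libraries follow, also as values only. PRX1, a mitochondrial peroxiredoxin, had 221 and 118 reads in Sro9 after H2O2 and 0 and 10 untreated. CCP1, cytochrome c peroxidase, had 228 and 176 after H2O2 and 0 and 19 untreated, and OYE2, an NADPH oxidoreductase, 161 and 222 after H2O2 and 56 and 76 untreated. GLR1 (glutathione reductase) had 33 and 63 after H2O2 and 15 and 11 untreated. Like SRX1 and TSA2, the hosts PRX1, CCP1 and GLR1 reached the minimum of the read test through H2O2 libraries alone. For TRR1 (thioredoxin reductase) and the peroxiredoxin TSA1 the order turned on clusters over 100 nt. TRR1 had 0 and 0 reads in clusters of up to 100 nt in Sro9 after H2O2 and 109 and 70 untreated, but 602 and 643 after H2O2 and 109 and 70 untreated with longer clusters included. TSA1 had 0 and 150 in Sro9 after H2O2 and 0 and 103 untreated, but 670 and 462 after H2O2 and 239 and 103 untreated with longer clusters included. The conditions overlapped in Sro9 for the thioredoxin TRX1, the glutaredoxin GRX1 and the peroxiredoxin AHP1 either way. In Slf1, AHP1 had 67 and 179 reads after H2O2 and 19 and 31 untreated, without overlap. With longer clusters included, TRR1 had 74 and 10 in Slf1 after H2O2 and 7 and 0 untreated, and TSA1 99 and 33, and 7 and 16. PRX1, CCP1, OYE2 and GLR1 overlapped in Slf1, and TRX1 and GRX1 had no reads there. None of these antioxidant hosts passed the edgeR test of H2O2 against untreated reads. RPP2A, an acidic ribosomal protein gene, had no terminal cluster in any library.

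The WT mRNA of most of these hosts was higher after H2O2, apart from TRX1 (log2 fold change -0.03, edgeR adjusted p = 0.97) and AHP1 (1.49, adjusted p = 0.059), which did not pass the test. In WT total RNA the log2 fold changes after H2O2 were 7.86 for TSA2, 3.62 for GRX2, 3.33 for TRX2 and 1.99 for SOD1 (edgeR adjusted p = 1.4e-07, 1.2e-05, 0.00017 and 0.0081). SRX1 had 10318 and 1356 counts in WT after H2O2 and 5 and 60 untreated, nearly the counts of the overlapping feature SUT668 (10357 and 1359, and 3 and 63), so the reads of this pair cannot be told apart. OLA1 had a WT log2 fold change of -0.33 ± 0.30 (SE, edgeR adjusted p = 0.41). Of 34 antioxidant enzyme genes in a list chosen with these data known, 25 had a terminal cluster (73.5%, against 37.5% of all coding genes), 12 of them in Slf1 and 25 in Sro9. The mRNAs of 20 of the 25 were higher after H2O2 in WT and of 0 lower, where 19.4% of all features tested were higher and 16.2% lower.

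**Figure D5:**
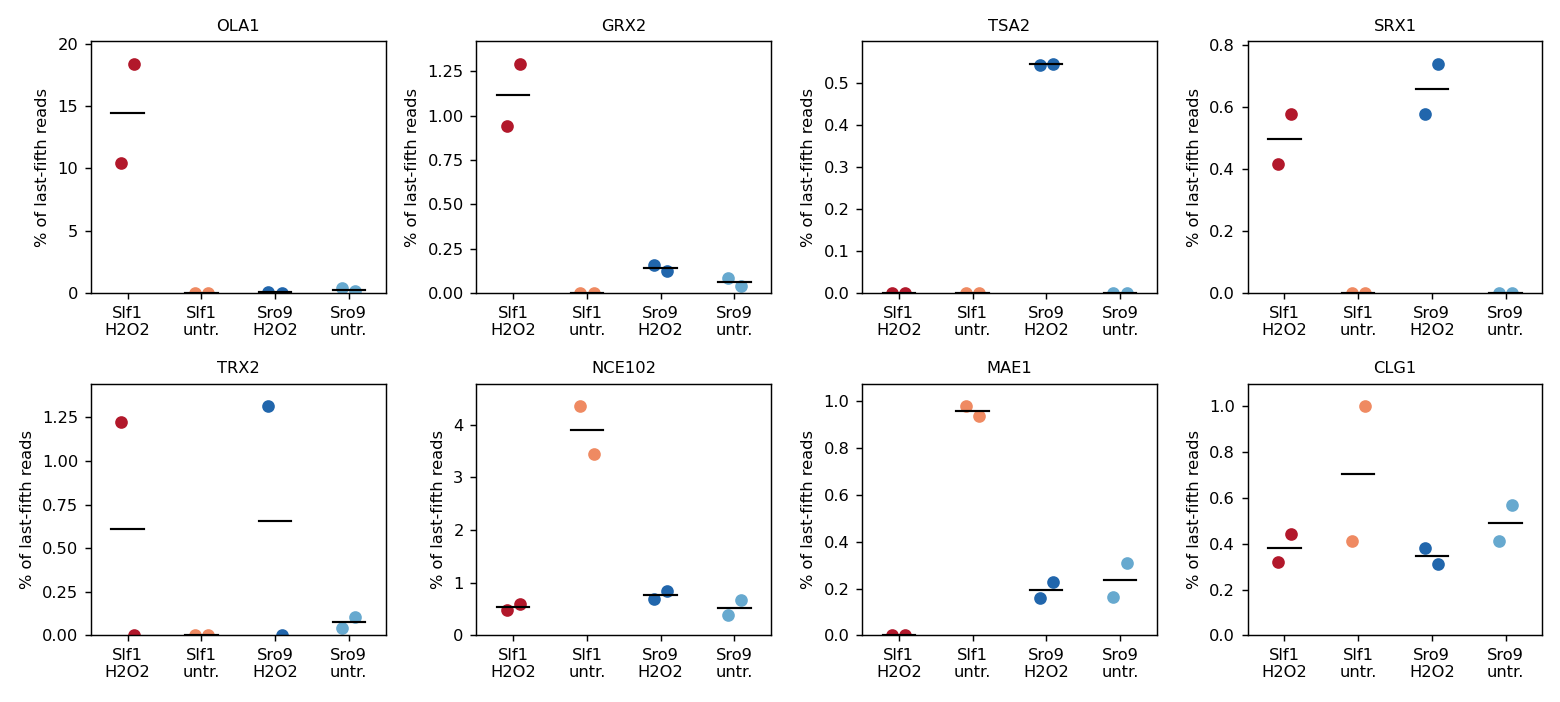
Share of a library's terminal reads (%, y axis) for 8 hosts in each PAR-CLIP library (points) with the mean of each pair (bar), H2O2 left of untreated within each LARP. OLA1 reaches 10.5% and 18.3% in the Slf1 H2O2 libraries, SRX1 and TSA2 are at 0 in all untreated libraries, and NCE102 and MAE1 are higher in untreated Slf1 libraries. MAE1 (malic enzyme) was chosen after its values were seen.

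Counts of hosts by presence were near those of the rest of the coding sequence. In Sro9, 126 of 2207 hosts (5.71%) had a terminal cluster in both H2O2 libraries and neither untreated one, and 61 (2.76%) the reverse. Among genes with clusters in the upstream stretch the shares were 5.99% and 2.65%. In Slf1 the counts were 6 (1.37%) and 19 (4.34%) of 438, against 1.22% and 4.12% in the upstream stretch. Across all features of the WT total RNA test, 19.4% were higher and 16.2% lower after H2O2 (edgeR adjusted p under 0.05, median log2 0.03). Of the 126 Sro9 hosts, 125 were tested there, 47 were higher (37.6%) and 11 lower (median log2 0.41), and of the 61, 9 were higher and 18 lower (29.5%; median -0.35). Of all 2260 hosts, 2250 were tested, 451 were higher and 495 lower (median -0.12). Over the 489 hosts seen in all 4 Sro9 libraries, the log2 change in reads and in WT mRNA had a Pearson r of 0.37 and a Spearman rho of 0.30 across genes, and over the 34 such Slf1 hosts 0.08 and 0.08. These WT counts rested on single libraries: without WT H2O2 replicate 1 they were 232 higher and 143 lower, and without WT H2O2 replicate 2 they were 371 and 318. The rRNA locus took 27.7% and 81.4% of the counts in WT after H2O2 and 47.2% and 7.39% untreated, and with its features left out 446 hosts were higher and 511 lower of 2247 tested.

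Between the LARPs, the read test could not be read as a difference in binding. Of the 634 terminal stretches, 335 had no cluster in any Slf1 library and so reached the minimum through Sro9 alone, while 4 had none in any Sro9 library. The table totals ran from 22432 to 37195 reads in Slf1 and from 178060 to 261960 in Sro9. edgeR called 195 of the 634 lower in Slf1 and 0 higher (adjusted p under 0.05), where 24.6% of all stretches were called lower and 0.383% higher, and in 194 of the 195 Slf1 had no cluster in any library. At the Sro9 share of reads, 55 of the 195 would have had 5 reads in every Slf1 library, and 67 in none. The count of lower stretches was 0 with a filter of at least 10 reads in at least 1 library. It did not hold in most fits that left out 1 library. The 5 with the largest changes are given as values only, since they had 0 reads in all 4 Slf1 libraries. SRV2, a cyclase-associated protein that binds actin, had 637 and 334 reads in Sro9 after H2O2 and 299 and 335 untreated, in clusters that ended at the same base 23 nt before the end of the stop codon in all 4. CYS3 (cystathionine gamma-lyase) had 51 and 281 after H2O2 and 228 and 232 untreated, SSB2 (a ribosome-associated Hsp70) 178 and 63 after H2O2 and 436 and 120 untreated, NSG1 (a regulator of sterol synthesis) 261 and 130 after H2O2 and 135 and 91 untreated, and GUS1 (glutamyl-tRNA synthetase) 86 and 137 after H2O2 and 87 and 144 untreated. No fold is given, since the Slf1 values are limits of depth.

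Genes of the translation and energy machinery, in lists chosen with these data known, were mostly hosts. Terminal clusters were found in 130 of 137 ribosomal protein genes (85 in Slf1, 119 in Sro9), 21 of 22 glycolysis and fermentation genes (19 and 19), 15 of 16 elongation and termination factors (8 and 15), 22 of 25 initiation factors (4 and 22), 22 of 23 chaperones (8 and 22) and 8 of 9 core histones (5 and 8), against 37.5% of all coding genes. Glycolysis and fermentation genes held 9.79% to 19.7% of Slf1 terminal reads and 4.38% to 6.12% of Sro9 ones, but 11.4% to 23.3% and 13.7% to 15.8% with clusters over 100 nt included, where the LARPs overlapped. Initiation factors held 0% to 0.859% of Slf1 and 0.720% to 1.52% of Sro9 reads. In WT mRNA after H2O2, 11 of 22 chaperone hosts were higher and 1 lower, 0 of 130 ribosomal protein hosts were higher and 36 lower, and 0 of 22 initiation factor hosts were higher and 10 lower, where 19.4% of all features tested were higher and 16.2% lower.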

How the data were processed

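PAR-CLIP reads were trimmed (Trim Galore), mapped to R64 (sacCer3) with Bowtie 1.2.0 at up to 10 places and clustered per library with PARalyzer by the authors. Each deposited cluster has counts of reads and of conversion events, and a fraction (the deposited score of its mode) that was not used. For total RNA, the deposited values are featureCounts counts per feature, without normalization. The 8 total RNA libraries of tagged strains were left out, because their file names conflict with their labels. Members and gene lists were chosen with earlier results of these data known. The RefSeq R64 annotation, without UTRs, gave positions and sequences, and 9 modes that lay in 2 coding sequences were kept. Measures were compared over libraries by exact permutation (SciPy 1.17.1, Python 3.11.15). Reads per stretch and 12 total RNA libraries (6 groups) entered edgeR 4.0.16 (R 4.3.3) at an adjusted p under 0.05, and tested on simulated data. DESeq2 1.42.0 was an alternative. Named hosts are the 10 with the largest mean share of terminal reads over the libraries, 5 per LARP, 10 stop-crossing hosts by number of libraries (ties by mean share), 4 of the study's examples, the 5 largest called changes per read contrast and antioxidant hosts seen in at least 4 libraries. Others are said to be chosen afterwards. Depth in total RNA ran from 3323216 to 21447260 counts, of which 1.44% to 94.8% fell on 33 rRNA features.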

Additional observations from a re-analysis of the deposited data

How the results depend on the processing

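Of 1081 alternative values, 990 stayed on their side of the threshold or near the count, 60 fell short of a threshold they had passed, 15 passed one they had missed and 16 were counts that moved by over 1.5 times. Of the 990, 54 had the other sign, 43 of them measures of clusters, and 0 of the 54 were called with the settings of the report. Among these, the stop-crossing share, Slf1 minus Sro9, was 0.80 percentage points in the report, -0.54 with 20 reads per cluster and -0.02 with unique sequences, and the motif share, terminal minus upstream, was 0.49, and -3.75 for the last 10%. With only clusters of unique sequence, modes on a uridine were less frequent among terminal than upstream clusters (difference -3.40 percentage points, exact paired permutation, adjusted p = 0.0417). For H2O2 against untreated reads, DESeq2 called 15 of 284 terminal stretches in Slf1 (87 of 1027 over all), 9 of 227 in Sro9 (35 of 800) and 19 of 317 in the difference (66 of 1164), against 0 in edgeR. For Slf1 against Sro9, the 195 calls were 0 with at least 10 reads in at least 1 library, 106 with 20 reads per cluster, and 0 to 177 when each library was left out in turn. They were 230 with libraries scaled by TMM and 282 with clusters over 100 nt kept. DESeq2 called 265 of 634 lower in Slf1 and 12 higher, where 35.1% and 2.3% of all stretches were called. Apart from TMM and DESeq2 for Slf1 against Sro9, these alternatives test other numbers of stretches. The cause of the changes was not tested beyond that. No label says whether a replicate number marks a culture, and the fits of the report did not pair libraries by it. The correlation of deviations between same-numbered libraries was -0.04 in Slf1, -0.05 in Sro9 and -0.09 in WT total RNA. With 2 libraries per condition, these correlations cannot decide the question. With a replicate block the LARP contrast had 0 calls, and WT hosts 428 higher and 447 lower. Leaving out each WT library gave 232 to 527 higher and 143 to 567 lower hosts, where 451 and 495 were found with all. When clusters over 100 nt were kept, the LARP measures missed the threshold and kept their sign, apart from the stop-crossing share at -0.39 percentage points. That alternative was chosen after seeing the data, like those without modes in 2 coding sequences and with clusters longer than 20 nt only. Depth limits Slf1 most: 335 of the 634 terminal stretches tested had no Slf1 cluster.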
